A study of Mus musculus with 39 samples.

Results

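Genes of foreign-compound sensing were followed in the mouse duodenum through 9 members, taken by symbol from a named list. The list holds 4 receptor or sensor genes, Nr1i2 (the pregnane X receptor, PXR), Nr1i3 (the constitutive androstane receptor, CAR), Ahr (the aryl hydrocarbon receptor) and Nfe2l2 (the transcription factor Nrf2). It also holds 5 target genes, Cyp1a1, Tiparp, Nqo1, Gclc and Cyp2b10. All 9 of 9 symbols were among the 16358 genes of the deposited count table, in 39 libraries, and none of the 9 was lost to a filter on low counts in any comparison.

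The mice were wild-type C57BL/6 males aged 8 weeks that carried a cannula into a lateral ventricle of the brain, and whole duodenum was used, with no cell type selected. Leptin, the adipocyte hormone, was given through the cannula 3 days after it was placed, and the duodenum was collected 2 h later; food had been withheld for 2 h before it, in controls too. Saline-water libraries (n = 14) came from mice that drank plain water and received saline, and Leptin-water libraries (n = 13) from mice that received 3 µg of leptin instead. Saline-antibiotic (n = 6) and Leptin-antibiotic libraries (n = 6) came from mice given the same injections after 48 h of ampicillin at 1 g/L and neomycin at 0.5 g/L in the drinking water. The library names in the labels are of 2 kinds, here called cohort M (8 Saline-water and 7 Leptin-water libraries) and cohort MT (6 libraries in each of the 4 groups). Replicate numbers are given in the labels, without saying whether each library is a separate animal, so p-values measure the spread between these samples, which may be technical.

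PXR and CAR are nuclear receptors that pair with a retinoid X receptor and switch on cytochrome P450, conjugation and transporter genes when drugs, steroids or bile acids reach the cell; both are known from liver and from the absorptive lining of the small intestine. AhR is a ligand-activated factor that pairs with Arnt and binds the xenobiotic response element, whose core is GCGTG. In the gut its ligands include dietary indoles and products of bacterial tryptophan metabolism, and Cyp1a1 and Tiparp are classic targets, of which Tiparp feeds back on the receptor. Nrf2 is held in the cytoplasm and degraded through Keap1 and Cul3 until oxidants or electrophiles release it, and with small Maf proteins it then binds the antioxidant response element, whose core is TGACNNNGC. Nqo1, a quinone reductase, and Gclc, the catalytic subunit of the enzyme that limits glutathione synthesis, are classic Nrf2 targets, and Nqo1 also answers to AhR. Cyp2b10 is the classic target of CAR and also responds to PXR.

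The upstream sequence of Nr1i2 is shown because that gene was the only member to pass the test for leptin with antibiotics, given below. The short windows are shown because they hold matches to the cores of the elements that AhR and Nrf2 bind. Sequences are from RefSeq (assembly GRCm38.p6), which held an entry for 7 of the 9 genes (not Ahr and Gclc), and the 250 bases before each start site were searched on both strands. GCGTG was found before 3 of the 7 genes (Cyp1a1, Tiparp and Cyp2b10), against 28.2% of all 32851 promoters of the table, and TGACNNNGC before 1 of the 7 (Nfe2l2), against 10.2%. A match describes the letters only. The sequences run 5′ to 3′ on the strand of the gene, and capitals mark the core, read on the opposite strand (as CACGC) for Tiparp and Cyp2b10. The core begins 54 bases before the start of Cyp1a1, 170 before that of Tiparp, 101 before that of Cyp2b10 and 240 before that of Nfe2l2. A further GCGTG lies 9 bases before the start of Cyp2b10 and is not shown.
Cyp1a1, chr9:57697539-57697583, plus strand: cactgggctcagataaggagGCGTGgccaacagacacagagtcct
Tiparp, chr3:65528257-65528301, plus strand: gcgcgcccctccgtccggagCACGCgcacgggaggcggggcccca
Cyp2b10, chr7:25897537-25897581, plus strand: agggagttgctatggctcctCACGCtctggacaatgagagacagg
Nfe2l2, chr2:75704875-75704913, minus strand: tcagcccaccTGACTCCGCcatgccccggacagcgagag
Nr1i2, chr16:38294825-38295074, minus strand, with neither core: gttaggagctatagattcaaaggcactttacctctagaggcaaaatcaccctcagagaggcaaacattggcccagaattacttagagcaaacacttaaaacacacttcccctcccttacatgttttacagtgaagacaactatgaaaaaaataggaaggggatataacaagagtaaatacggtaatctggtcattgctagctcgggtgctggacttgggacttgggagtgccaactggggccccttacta

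Levels are given in CPM, which are counts scaled to a common library size with TMM factors over the 39 libraries; library totals were 30207536 to 67870777 counts. Residual ribosomal RNA (Rn45s) took 2.87% to 13.3% of a library. The 15 enterocyte markers were all measured, with a mean of 10.48 to 10.93 log2 CPM in cohort M and of up to 11.53 in cohort MT, so the labelled tissue was matched by its lining cells. Exocrine pancreas markers (18 of 22 in the table) had a mean above 4 log2 CPM in 6 libraries, namely Saline-antibiotic 1, 2 and 5, Leptin-antibiotic 3, and Leptin-water 6 and 10. Hepatocyte markers (6 of 8 in the table) had a mean of 3.26 to 6.23 log2 CPM in the 15 libraries of cohort M. In cohort MT they lay between -1.59 and -0.50, apart from Saline-antibiotic 2 at 3.29. In whole tissue, fewer cells of a type and less RNA per cell cannot be told apart.

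Compared per kilobase of merged exons in the Saline-water libraries, Cyp2b10 had the highest level of the 9 genes, at 169 ± 63.3 CPM per kb (SD, n = 14). It was followed by Nfe2l2 at 63.3 ± 6.94, Nr1i2 at 54.9 ± 6.60, Nqo1 at 33.3 ± 6.49 and Gclc at 18.8 ± 3.73 CPM per kb. Nr1i3 at 9.97 ± 1.56, Ahr at 8.48 ± 0.630, Tiparp at 7.04 ± 0.772 and Cyp1a1 at 5.45 ± 1.61 CPM per kb were the lowest. The ranges over libraries overlapped between Nfe2l2 and Nr1i2, between Nqo1 and Gclc, and between each neighbouring pair from Nr1i3 down to Cyp1a1. Thus, per kilobase of merged exons, the message of Nrf2 and PXR was several-fold above that of CAR and AhR. By the same measure, the AhR target Cyp1a1 was the least abundant of the members. Merged exon length can exceed the length of a single transcript. For Nr1i3 it was 4.414 kb, of which 74.9% is shared with Tomm40l, a gene on the opposite strand. The size of the gap for CAR is therefore uncertain.

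Some reads of these genes cannot be assigned with certainty. Nr1i3 (chromosome 1, 171213970 to 171220701, plus strand, GRCm38) shares 74.9% of its merged exon length with Tomm40l, a mitochondrial import gene on the opposite strand. The libraries are strand-specific per the labels' protocols, but the strand setting of the counting is not given in the sources used here, so counts of this pair may be mixed. Cyp2b10 (chromosome 7, 25897620 to 25926624, plus strand) shares 8.70% of its 50-base words with Cyp2b13 and the predicted gene Gm45225, and Cyp1a1 (chromosome 9, 57687928 to 57703824, plus strand) shares 3.43% with Cyp1a2. Tiparp (chromosome 3, 65528410 to 65555518, plus strand) and Ahr (chromosome 12, 35497974 to 35535038, minus strand) overlap a transcribed pseudogene and a lincRNA on the opposite strand over 5.12% and 2.06% of their exon length. No such sharing was found for Nr1i2 (chromosome 16, 38248323 to 38294824, minus strand), Nfe2l2 (chromosome 2, 75675513 to 75704641, minus strand), Nqo1 (chromosome 8, 107388225 to 107403206, minus strand) or Gclc (chromosome 9, 77754535 to 77794485, plus strand).

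**Figure D1:**
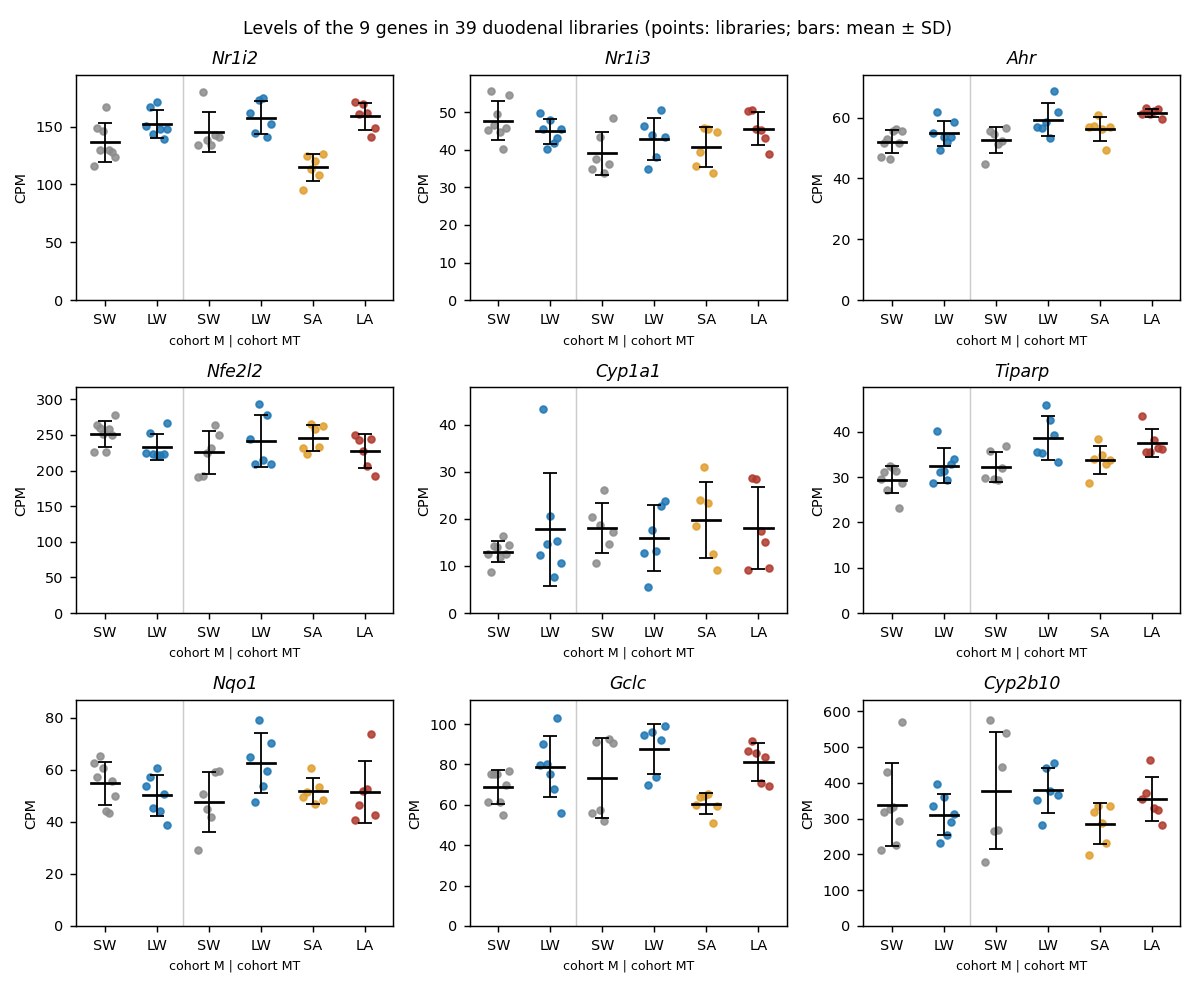
Each panel plots 1 gene, with CPM on the vertical axis from 0 and the libraries as points by group and cohort (SW Saline-water, LW Leptin-water, SA Saline-antibiotic, LA Leptin-antibiotic; cohort M left of the grey line, cohort MT right); bars are mean ± SD. Nr1i2 in the 6 Saline-antibiotic libraries (95.45 to 126 CPM) lies below all other libraries of cohort MT, and the points of Cyp1a1 and Cyp2b10 spread the most.

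Of the 9 genes, 1 passed an adjusted p of 0.05 in the response to leptin (Nr1i2, with antibiotics), 1 between the cohorts (Nr1i3), and none in the response to antibiotics. All single-gene tests are edgeR's quasi-likelihood F test, adjusted by Benjamini-Hochberg over all genes of the comparison. Leptin on water passed for 0 of the 9, against 0.312% of the 16356 genes tested (51 genes, 45 higher and 6 lower), and 4 of the 9 had an unadjusted p under 0.05, all higher, against 11.4%. Within cohort M, 0 of 9 passed (0.0306% of all genes) and 1 had an unadjusted p under 0.05 (14.9%). Within cohort MT, 0 of 9 passed (0% of all genes) and 3 had an unadjusted p under 0.05 (7.31%). Leptin on antibiotic passed for 1 of the 9, against 0.514% of 16340 genes (84 genes, 75 higher and 9 lower), and 3 of the 9 had an unadjusted p under 0.05, all higher, against 17.2%.

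The response to antibiotics in saline mice passed for 0 of the 9 (0.196% of all genes, 32 genes), with 1 at an unadjusted p under 0.05 (12.5%). In leptin mice it passed for 0 of the 9 (2.28%, 372 genes), with 0 at an unadjusted p under 0.05 (18.9%). Averaged over both injections it passed for 0 of the 9 (6.45%, 1054 genes), with 1 at an unadjusted p under 0.05 (22.8%). The test of whether the leptin response differed between antibiotic and water passed for 0 of the 9 (0%), and 1 had an unadjusted p under 0.05 (6.38%). The test of whether the leptin response on water differed between cohorts passed for 0 of the 9 (0.0428%, 7 genes), and 1 had an unadjusted p under 0.05 (9.86%). Cohort MT against cohort M in Saline-water libraries passed for 1 of the 9 (17.3%, 2822 genes), the same gene being the 1 with an unadjusted p under 0.05 (31.4%). In DESeq2, the members passing were likewise 0 on water and 0 in the antibiotic response of leptin mice, and 1 in that of saline mice. A count of 1 in 9 rests on a single gene, and the unadjusted counts are given as a description. For leptin on water, 18 of 18 pancreas markers had values above 0 (median 2.51) and 0 of 6 hepatocyte markers did (median -0.78), 0 passing in either list, and their part in the members' values was not tested.

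**Figure D2:**
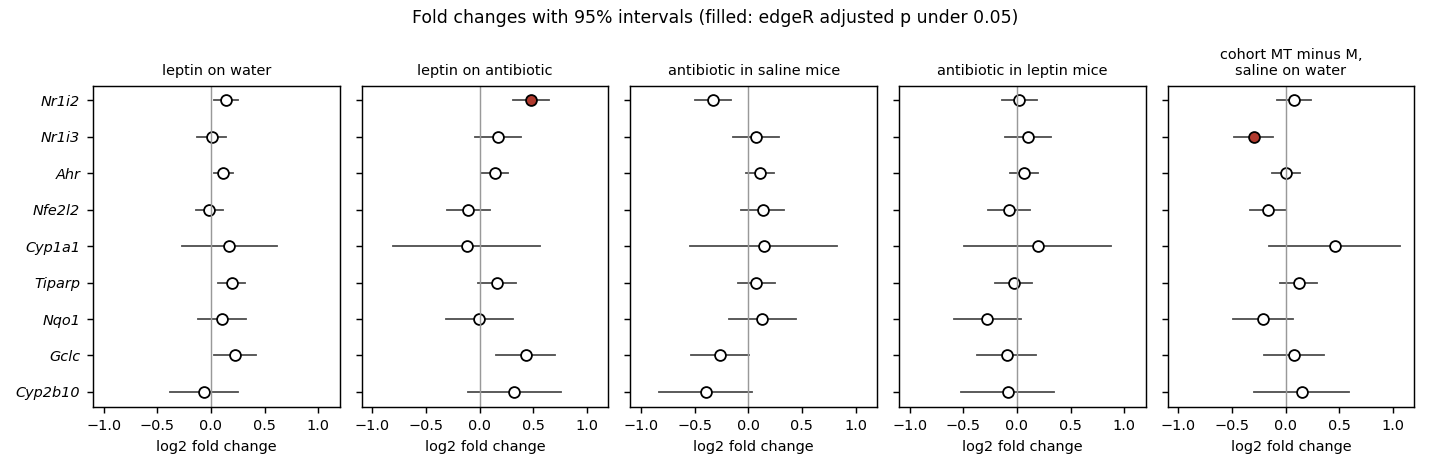
Log2 fold changes (horizontal axis) of the 9 genes in 5 comparisons, as points with 95% intervals from edgeR; filled points passed an adjusted p of 0.05. The filled points are Nr1i2 for leptin on antibiotic (0.48) and Nr1i3 between cohorts (-0.30), and the intervals of Cyp1a1 and Cyp2b10 are the widest.

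Nr1i2, the gene of the drug and bile acid sensor PXR, was higher after leptin in antibiotic-treated mice. Its level was lowest 95.45, median 117 and highest 126 CPM in the 6 Saline-antibiotic libraries and lowest 141, median 161 and highest 171 CPM in the 6 Leptin-antibiotic libraries. Every leptin library was above every saline library. The means were 115 ± 11.7 and 159 ± 11.6 CPM (SD, n = 6 each), and the log2 fold change was 0.48 (SE 0.081, 95% interval 0.31 to 0.64, edgeR adjusted p = 0.0098). This complete separation held for 2 of the 9 members (Nr1i2 and Gclc), against 1.6% of all genes. The call held in 24 of 24 fits that left out 1 library, with the weakest of them at an adjusted p of 0.048 (without Saline-antibiotic 1).

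Markers of other cell types differed in level in the same comparison, without any passing. All 15 enterocyte markers had positive fold changes for leptin on antibiotic (median log2 0.35, against -0.02 for all genes), 0 passing, and their mean was 10.9 ± 0.285 log2 CPM in Saline-antibiotic and 11.25 ± 0.227 in Leptin-antibiotic libraries (summed level 24660 to 42100 and 38870 to 55820 CPM). Of 18 exocrine pancreas markers, 17 had negative fold changes (median -1.09), 0 passing, while their summed level, which overlapped between the groups, ranged from 734 to 2211 CPM in Saline-antibiotic and from 1074 to 2832 CPM in Leptin-antibiotic libraries; Prss1, Ctrc, Amy2a1 and Ptf1a were not in the table. With an enterocyte score as a covariate, chosen after the data were seen, the Nr1i2 value was 0.32 (adjusted p = 0.40). With pancreas, smooth muscle and stomach scores as covariates it was 0.43 (adjusted p = 0.057). Without the 5 libraries of cohort MT above the pancreas limit it was 0.39 (adjusted p = 0.29). Those 5 include Saline-antibiotic 1, 2 and 5 and Leptin-antibiotic 3, so fewer libraries were compared. The part of these tissues in the Nr1i2 difference was otherwise not tested.

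On water, Nr1i2 was 136 ± 16.5 CPM in Saline-water (n = 8) and 152.5 ± 12.2 CPM in Leptin-water libraries (n = 7) of cohort M. In cohort MT it was 145 ± 17.4 and 158 ± 14.4 CPM (n = 6 each). The groups overlapped in both cohorts, and the log2 fold change over all 27 libraries was 0.14 (SE 0.054, adjusted p = 0.29), with 0.16 within cohort M and 0.13 within cohort MT. The leptin response was 0.35 higher with antibiotics than on water in cohort MT (95% interval 0.12 to 0.58, unadjusted p = 0.0051, adjusted p = 0.77), which did not pass.

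Antibiotics in saline mice went with a lower Nr1i2 level in these libraries, at 145 ± 17.4 CPM on water and 115 ± 11.7 CPM with antibiotics, which is -0.33 on the log2 scale (SE 0.081, 95% interval -0.49 to -0.16, adjusted p = 0.086). It did not pass, although every Saline-antibiotic library (highest 126 CPM) was below every Saline-water library of cohort MT (lowest 134 CPM). This held for 1 of the 9 members, against 0.324% of all genes. It passed under DESeq2 (-0.34, adjusted p = 0.017) and with upper quartile scaling (-0.36, adjusted p = 0.037), and also with the enterocyte score as a covariate (-0.41, adjusted p = 0.0035) and without Saline-water 9 (adjusted p = 0.047). It did not pass under the other 4 settings, the weakest being -0.26 without the pancreas-high libraries (adjusted p = 0.21), nor without Saline-water 10 (-0.26, adjusted p = 0.17), the highest library of its group. In leptin mice the corresponding value was 0.02 (95% interval -0.14 to 0.19), from 158 ± 14.4 to 159 ± 11.6 CPM. The leptin and antibiotic comparisons that include the Saline-antibiotic libraries share those 6 libraries, so the rise of 0.48 and the value of -0.33 are not independent of each other.

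**Figure D3:**
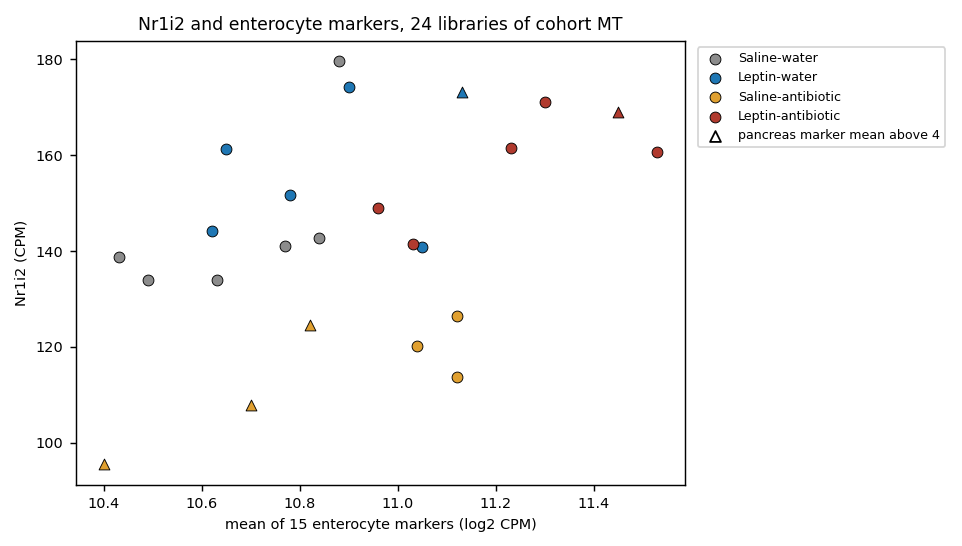
Nr1i2 level in CPM (vertical axis) against the mean of the 15 enterocyte markers in log2 CPM (horizontal axis) for the 24 libraries of cohort MT, coloured by group; triangles are libraries with a pancreas marker mean above 4. The Saline-antibiotic points lie lowest (95.45 to 126 CPM) over a range of enterocyte levels, and the Leptin-antibiotic points lie high on both axes.

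Nr1i3, the gene of CAR, did not pass for leptin or antibiotics. Its level over all 39 libraries was 43.7 ± 5.56 CPM (lowest 33.7, highest 55.5). Leptin on antibiotic gave 40.8 ± 5.37 against 45.6 ± 4.45 CPM (log2 0.17, 95% interval -0.05 to 0.38, adjusted p = 0.41), and leptin on water gave 0.01 (95% interval -0.13 to 0.14). Between the cohorts, Saline-water libraries had lowest 40.2, median 46.2 and highest 55.5 CPM in cohort M, and lowest 33.8, median 36.8 and highest 48.5 CPM in cohort MT, so the ranges overlapped. The means were 47.7 ± 5.18 (n = 8) and 39.01 ± 5.74 CPM (n = 6), and edgeR gave a log2 difference of -0.30 (SE 0.088, adjusted p = 0.020).

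Several things moved with that cohort difference. All 6 hepatocyte markers in the table passed as lower in cohort MT (median log2 -6.31); their mean was 5.11 ± 0.951 log2 CPM in Saline-water libraries of cohort M and -1.12 ± 0.248 in those of cohort MT, with summed levels of 114 to 920.5 and 6.56 to 14.0 CPM, and Fgb and Hpx were not in the table. CAR is known to be abundant in liver. Tomm40l, which overlaps Nr1i3, also passed as lower in cohort MT, from 51.4 ± 2.58 to 44.6 ± 4.46 CPM (log2 -0.21, adjusted p = 0.011). Other lists also held calls in this comparison, with 4 of 10 neuron and glia markers and 3 of 10 fibroblast and endothelial markers higher in cohort MT, and 2 of 10 stomach and Brunner gland markers lower (median -0.83). Of 7 stem cell markers 1 (Ascl2) was lower, and of 10 immune markers 1 (Ptprc) was higher. Over all genes 17.3% passed in this comparison. The stomach, stem cell and immune counts were near or below that share. These tissues, the overlapping gene and the cohort cannot be told apart here. The call was lost with tissue scores as covariates (-0.31, adjusted p = 0.058), and also without Saline-water 9 (adjusted p = 0.060, the highest of 27 fits that left out 1 library) or Saline-water 13.

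Ahr was the steadiest of the 9 genes, at 55.9 ± 5.07 CPM over the 39 libraries, a coefficient of variation of 9.08%. In the water groups it was 52.3 ± 3.88 CPM with saline (n = 14) and 56.9 ± 5.08 CPM with leptin (n = 13), and 7 of the 13 leptin libraries were above every saline library. The log2 fold change was 0.12 (SE 0.045, unadjusted p = 0.015, adjusted p = 0.29). With antibiotics the level was lowest 49.2, median 57.0 and highest 60.9 CPM with saline and lowest 59.5, median 61.6 and highest 63.1 CPM with leptin (log2 0.14, unadjusted p = 0.036, adjusted p = 0.25). Ahr thus had values above 0 for leptin in both settings, 5 of 6 Leptin-antibiotic libraries being above every Saline-antibiotic library, and neither passed.

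Nfe2l2, the gene of Nrf2, passed nowhere. It was 238 ± 25.0 CPM over the 39 libraries (lowest 191.5, highest 294). Leptin gave -0.02 on water (95% interval -0.14 to 0.11) and -0.10 with antibiotics (95% interval -0.30 to 0.09). Antibiotics gave 0.13 in saline mice (95% interval -0.06 to 0.33) and -0.08 in leptin mice (95% interval -0.27 to 0.12). These intervals exclude a change of this message as large as that of Nr1i2 after leptin with antibiotics; they say nothing of the Nrf2 protein, which is regulated by degradation.

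Cyp1a1, the P450 induced through AhR, was the most variable of the 9 genes, with a coefficient of variation of 44.7% over 39 libraries (lowest 5.43, median 14.8, highest 43.4 CPM). The highest value was that of Leptin-water 2 in cohort M, whose group had 17.8 ± 12.0 CPM (n = 7) and a median of 14.8. In the antibiotic groups it ranged from 9.10 to 31.1 CPM with saline and from 9.198 to 28.6 CPM with leptin, so these groups overlapped almost entirely. The log2 fold changes were 0.17 for leptin on water (95% interval -0.27 to 0.62), -0.12 for leptin on antibiotic (95% interval -0.80 to 0.56) and 0.14 for antibiotics in saline mice (95% interval -0.54 to 0.83). With this spread between libraries the intervals are wide, and changes of any size within them remain compatible with these values.

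Tiparp, the ADP-ribosyltransferase target of AhR, had the lowest p of the members for leptin on water. It was 30.7 ± 3.37 CPM with saline (n = 14; lowest 23.3, median 30.5, highest 36.8) and 35.4 ± 5.25 CPM with leptin (n = 13; lowest 28.6, median 34.1, highest 45.9). The groups overlapped, with 4 of 13 leptin libraries above every saline library. The log2 fold change was 0.19 (SE 0.061, unadjusted p = 0.0033, adjusted p = 0.17), with 0.14 in cohort M and 0.27 in cohort MT. With antibiotics, leptin gave 33.8 ± 3.18 against 37.6 ± 3.06 CPM (log2 0.16, adjusted p = 0.33). Antibiotics alone gave 0.08 (95% interval -0.10 to 0.25).

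Nqo1, the quinone reductase, went in opposite directions with leptin on water in the cohorts, and neither passed. In cohort M it was 54.8 ± 8.28 CPM with saline and 50.1 ± 7.81 CPM with leptin (log2 -0.13, adjusted p = 0.57). In cohort MT it was 47.5 ± 11.5 and 62.6 ± 11.4 CPM (log2 0.40, unadjusted p = 0.013, adjusted p = 0.62). The difference between cohorts was 0.54 (95% interval 0.14 to 0.94, unadjusted p = 0.0098, adjusted p = 0.31). With antibiotics, leptin gave 51.7 ± 4.94 against 51.3 ± 12.0 CPM (log2 -0.00, 95% interval -0.31 to 0.31), and the leptin response with antibiotics minus that on water was -0.41 (95% interval -0.85 to 0.03, adjusted p = 0.77).

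Gclc, which serves glutathione synthesis, was the target gene with the largest value for leptin on antibiotic. Its level was lowest 50.8, median 61.9 and highest 65.2 CPM in Saline-antibiotic and lowest 69.1, median 84.7 and highest 91.9 CPM in Leptin-antibiotic libraries, again with every leptin library above every saline library. The log2 fold change was 0.43 (SE 0.13, 95% interval 0.16 to 0.70, unadjusted p = 0.0033), and at an adjusted p of 0.11 it did not pass. With the enterocyte covariate named above it was 0.20. On water it was 70.7 ± 14.0 CPM with saline and 82.9 ± 14.1 CPM with leptin (log2 0.22, unadjusted p = 0.027, adjusted p = 0.35), and antibiotics in saline mice gave -0.26 (95% interval -0.54 to 0.01, adjusted p = 0.42).

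Cyp2b10, the P450 of the CAR and PXR programme, ranged from 180 (Saline-water 9) to 576 CPM (Saline-water 10), both in the same group of cohort MT, where the mean was 379 ± 163 CPM (n = 6). Leptin gave -0.07 on water (95% interval -0.38 to 0.25) and 0.32 with antibiotics (285 ± 57.4 against 355 ± 61.7 CPM, 95% interval -0.11 to 0.76, adjusted p = 0.43). Antibiotics in saline mice gave -0.40 (95% interval -0.83 to 0.04, adjusted p = 0.45) and in leptin mice -0.09 (95% interval -0.52 to 0.35). With the enterocyte score as a covariate, chosen after the data were seen, the value in saline mice was -0.62 (adjusted p = 0.035). That averaged over both injections was -0.62 (adjusted p = 0.0048). In each case this was the only 1 of 7 other settings to pass, and 0 of 24 fits without 1 library passed. Over the 7 settings the values were as small as -0.22 in saline mice (highest adjusted p 0.75) and -0.12 averaged (highest adjusted p 0.70).

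Other genes of these pathways were counted in lists. For leptin on water, 0 passed among 7 genes of the AhR complex, 8 other AhR targets, 11 Nrf2 regulators, 26 other Nrf2 targets, 11 partners of PXR and CAR and 18 of their other targets. The list medians lay between -0.04 and 0.10, beside -0.01 for all genes. The lowest p among them belonged to Bach1, the repressor that competes with Nrf2 for its elements, at 124 ± 10.6 and 138.5 ± 10.39 CPM (log2 0.16, adjusted p = 0.099). Among the targets of PXR and CAR, the bile conjugate exporter Abcc2 had 0.29 (adjusted p = 0.17) and the drug efflux pump Abcb1a 0.31 (adjusted p = 0.42).

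For leptin on antibiotic, Bach1 rose from 115 ± 15.5 to 148 ± 6.94 CPM (log2 0.37, SE 0.082, adjusted p = 0.034), 1 of 11 Nrf2 regulators and the only call in the 6 lists. For Bach1 every leptin library was above every saline library, as for 1.6% of all genes. It passed in 13 of 24 fits that left out 1 library (highest adjusted p 0.14) and under 2 of 8 other settings (highest adjusted p 0.53). All 18 other targets of PXR and CAR had values above 0, with a median of 0.31 beside -0.02 for all genes, and 0 of 18 passed. The enterocyte markers, whose median was 0.35 in the same comparison, also had values above 0, and their part was not tested. Within this list the P450 gene Cyp3a13 went from 1305 ± 275 to 1813 ± 244 CPM (log2 0.48, adjusted p = 0.12). Rxra, which encodes the shared partner of both receptors, went from 248.9 ± 17.9 to 300 ± 21.4 CPM (log2 0.28, adjusted p = 0.055). Cyp2b13, a neighbour of Cyp2b10 in the same gene cluster and the 1 of 4 such neighbours in the table, had 0.76 at 2.19 ± 0.408 and 3.66 ± 0.811 CPM (adjusted p = 0.21).

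Antibiotics went with lower levels of several target genes of PXR and CAR, while the receptors and the 5 target genes among the members did not pass. Averaged over both injections (12 libraries against 12), 5 of 18 other targets fell and 0 rose, against 6.45% of all genes passing (362 of 16340 lower), with a list median of -0.14 beside -0.00 for all genes. The lists were chosen with earlier results of these data known, so such counts are a description and not a test of the list. Cyp2c55, a P450 gene, fell from 139 ± 59.8 to 33.7 ± 9.04 CPM (log2 -2.02, adjusted p = 2.2e-05). Ces2a, a carboxylesterase gene, fell from 369 ± 135 to 126 ± 23.9 CPM (log2 -1.53, adjusted p = 2.2e-05). The intestinal P450 genes Cyp3a11 (log2 -0.96, adjusted p = 0.0015) and Cyp3a25 (log2 -0.80, adjusted p = 0.0012) and the exporter gene Abcc3 (log2 -0.24, adjusted p = 0.0496) also fell. Reads of the Cyp2c, Cyp3a and Ces2 families can be shared between near copies, so these values are uncertain to that extent. In saline mice alone 2 of the 18 passed (Ces2a and Cyp2c55, lower), and in leptin mice alone 4 (Ces2a, Cyp2c55, Cyp3a11 and Cyp3a25, lower). Averaged over injections, Ces2a, Cyp2c55, Cyp3a11 and Cyp3a25 passed in 24 of 24 fits that left out 1 library, and Abcc3 in 6 of 24. In leptin mice alone, Cyp3a11 and Cyp3a25 each passed in 7 of 24 such fits, and both were lost with tissue scores and without the pancreas-high libraries (highest adjusted p over other settings 0.16 and 0.21). In saline mice alone, Ces2a and Cyp2c55 were lost without the pancreas-high libraries (adjusted p = 0.074 for both).

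The Nrf2 and AhR lists held further calls for antibiotics averaged over both injections. Of 26 other Nrf2 targets 4 fell and 0 rose, against the same 6.45% of all genes passing (692 higher and 362 lower), beside a list median of -0.03. These lists too were chosen with earlier results known, so the counts are a description. Hmox1, the haem oxygenase gene, fell from 5.37 ± 6.32 to 1.86 ± 0.453 CPM (log2 -1.42, adjusted p = 0.0043). All 12 antibiotic libraries were below every water library of cohort MT for this gene, and the share of all genes separated in this way was not counted. Gstm1, a glutathione transferase gene, fell by 1.09 on the log2 scale (adjusted p = 0.0016), the epoxide hydrolase gene Ephx1 by 0.62 (adjusted p = 0.027) and the ferritin light chain gene Ftl1 by 0.27 (adjusted p = 0.044). Of the AhR lists, Ahrr, the AhR repressor and itself a target, fell from 4.01 ± 0.685 to 3.15 ± 0.563 CPM (log2 -0.34, adjusted p = 0.046), Arnt2 rose (log2 0.52, adjusted p = 0.023), and Aldh3a1 rose from 0.341 ± 0.295 to 1.14 ± 1.83 CPM (log2 2.18, adjusted p = 0.048). Nr0b2, a corepressor of nuclear receptors, rose with 0.56 (adjusted p = 0.019), the 1 call among 11 partners of PXR and CAR, a count near that share. Over the 24 fits that left out 1 library, Hmox1, Gstm1, Ephx1 and Nr0b2 passed in 24, Arnt2 in 23 (not without Saline-antibiotic 4, adjusted p = 0.051), Ftl1 in 11, and Ahrr and Aldh3a1 in 9. Over 7 other settings Gstm1 passed in 7, Ephx1, Nr0b2 and Ftl1 in 5, Ahrr in 4 and Aldh3a1 in 3. Hmox1 passed in 6 of the 7, and the remaining setting gave it no adjusted p. Its averaged log2 value was as small as -0.93 in fits that left out 1 library. Arnt2 was lost with the enterocyte score (adjusted p = 0.32). Without the pancreas-high libraries, Ephx1, Nr0b2, Ftl1, Ahrr and Aldh3a1 did not pass. In saline mice alone Hmox1 passed (-2.06, adjusted p = 0.039), with -1.08 without Saline-water 13; that call was kept in 19 of 24 fits without 1 library and lost without Saline-antibiotic 1, 2, 4, 5 or 6 and without the pancreas-high libraries. In leptin mice alone Gstm1 passed (-1.19, adjusted p = 0.024), in 21 of 24 such fits, and not with tissue scores or without the pancreas-high libraries.

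In the antibiotic comparison averaged over both injections, all 15 enterocyte markers had values above 0 (5 passing as higher, median 0.25), all 10 smooth muscle markers had values above 0 (2 higher), and 18 of 18 pancreas markers did (0 passing, median 2.03). Immune markers were lower, with 0 of 10 above 0, 2 passing (Adgre1 and Ms4a1) and a median of -0.24; their part in the lower Hmox1, which macrophages are known to express, was not tested. The part of these tissues in the lower PXR and CAR targets was not tested beyond the settings given above.

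**Figure D4:**
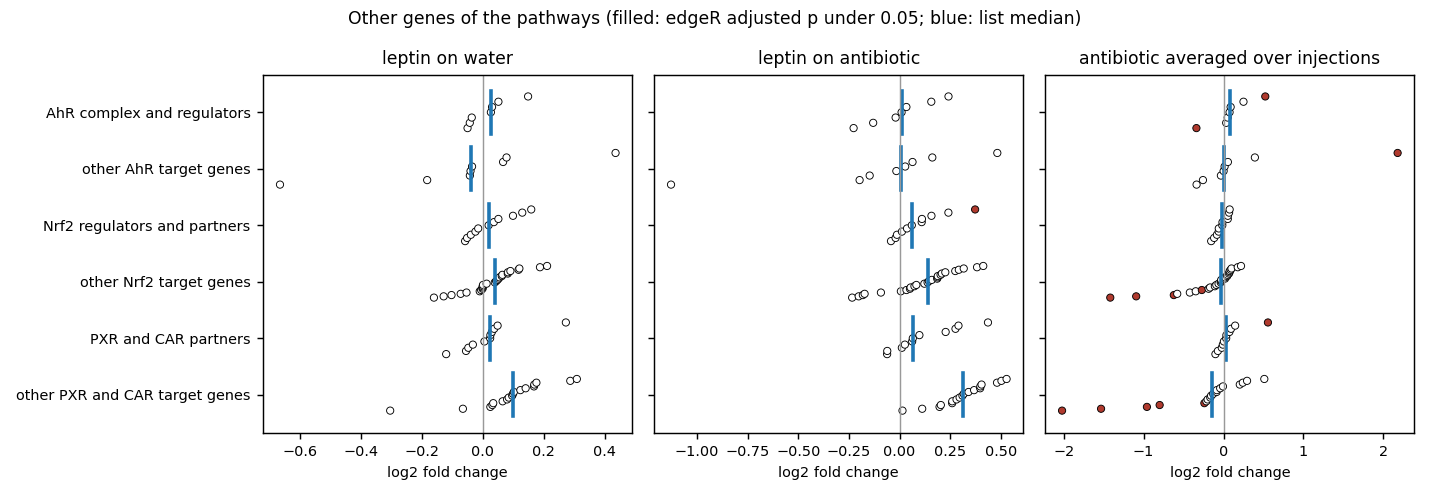
Log2 fold changes (horizontal axis) of the other genes of the pathways, in 6 lists, for leptin on water, leptin on antibiotic and antibiotics averaged over both injections; each point is a gene, filled where the edgeR adjusted p is under 0.05, and the blue bar is the list median. The PXR and CAR targets lie right of 0 for leptin on antibiotic (median 0.31) and have 5 filled points left of 0 for antibiotics.

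Whether a receptor gene and its target varied together from library to library was computed for 8 pairs named from the known pathways. Values were log2 CPM less the mean of the group and cohort, with permutation tests over the 39 libraries (100000 permutations, two-sided) adjusted over the 8 pairs. Both genes of a pair come from the same library and share its depth and its mix of cells. Nr1i3 and Cyp2b10 had a Pearson r of 0.578 (p = 0.0001, adjusted p = 0.0008) and a Spearman rho of 0.608 (p = 5e-05). It was 0.678 within cohort M (n = 15, permutation p = 0.0055), 0.539 within cohort MT (n = 24, p = 0.0062) and 0.513 without the 2 libraries farthest from the median of Nr1i3. Nr1i2 and Cyp2b10 had an r of 0.480 (p = 0.0019, adjusted p = 0.0077) and a rho of 0.512 (p = 0.00095), or 0.437 without the 2 farthest libraries. This pair differed between cohorts in what it reached, at 0.264 in cohort M (p = 0.34) and 0.621 in cohort MT (p = 0.0014), a difference that was not tested. Without the 6 libraries above the pancreas limit it was 0.388, which did not pass. Values of this size were not particular to these 2 pairs. With the other members, Cyp2b10 had r values from 0.176 (Cyp1a1) to 0.663 (Gclc), with 0.562 for Ahr and 0.445 for Nfe2l2.

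The remaining 6 pairs did not pass by Pearson r over the 39 libraries, and 3 of them passed within cohort MT. Ahr and Cyp1a1 had r = 0.337 (adjusted p = 0.080) and rho = 0.354 (p = 0.028), with 0.398 in cohort M and 0.304 in cohort MT. Nfe2l2 had r = 0.326 with Nqo1 (adjusted p = 0.080; rho 0.266, p = 0.10) and 0.315 with Gclc (adjusted p = 0.080; rho 0.387, p = 0.015, adjusted 0.039). Within cohort M the r values were -0.173 and -0.025, and within cohort MT 0.488 (permutation p = 0.015, adjusted p = 0.034) and 0.449 (permutation p = 0.029, adjusted p = 0.046). The rho of Nfe2l2 and Gclc was 0.282 in cohort M (permutation p = 0.31) and 0.453 in cohort MT (permutation p = 0.028). Differences between the cohorts were not tested. Ahr and Nqo1 had r = 0.201 (p = 0.22; rho 0.159, p = 0.33), with -0.335 in cohort M (permutation p = 0.22) and 0.487 in cohort MT (permutation p = 0.017, adjusted p = 0.034). Ahr and Tiparp had 0.255 (p = 0.12; rho 0.286, p = 0.076), and the AhR targets Cyp1a1 and Tiparp had 0.131 (p = 0.43; rho 0.046, p = 0.79), which was -0.095 without the 2 farthest libraries.

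**Figure D5:**
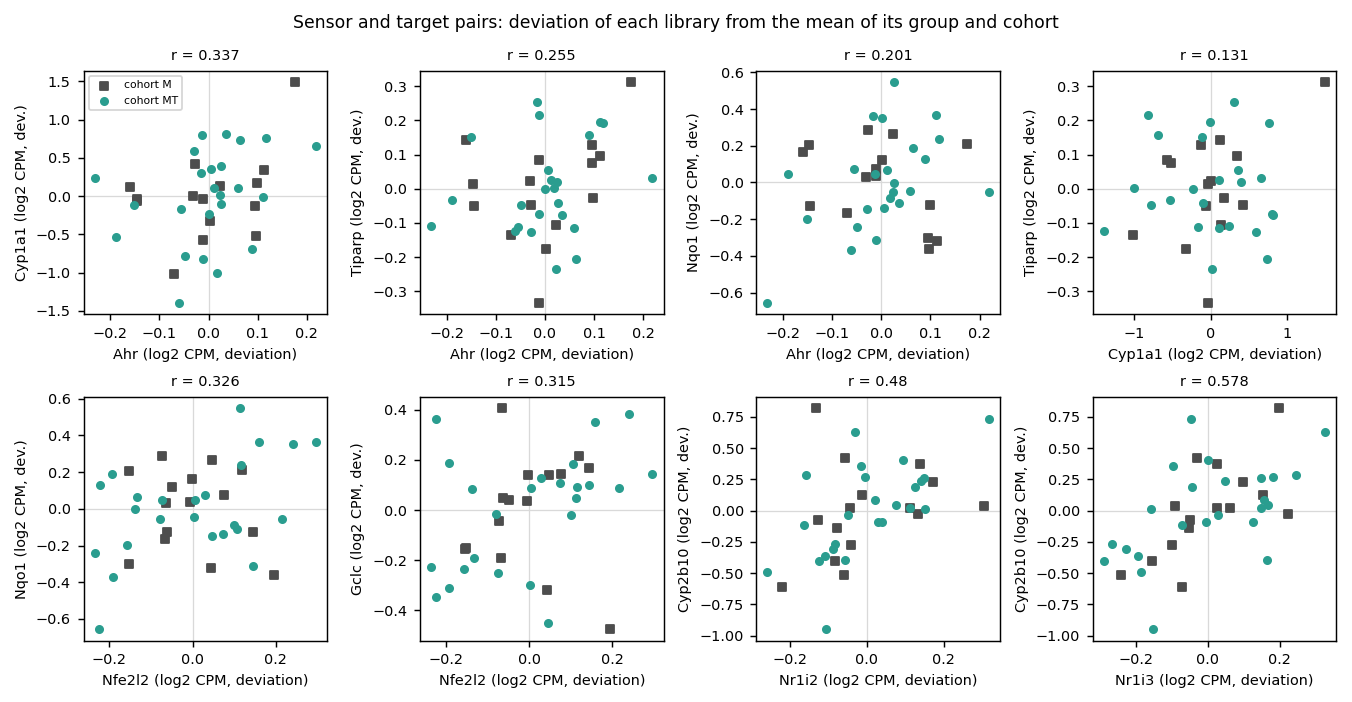
Each panel plots a pair of genes, as deviations in log2 CPM from the mean of the group and cohort, for 39 libraries; squares are cohort M and circles cohort MT. The points of Nr1i3 and Cyp2b10 rise together in both cohorts (r = 0.578), and those of Cyp1a1 and Tiparp show little relation (r = 0.131).

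Genes whose deviations were most like those of each member were ranked by Pearson r over the 39 libraries, among 12608 genes with a mean of at least 1 log2 CPM, as a description. For Nr1i2 they were Kcnk5, a potassium channel gene (0.847), Hnf4g, a nuclear receptor gene of the gut lining (0.823), and Fut4 (0.813). For Nr1i3 they were Nat8f5 (0.765), Maoa (0.749) and Dpyd (0.748), and for Ahr Slc25a15 (0.711), Phlpp2 (0.696) and Akr1c14 (0.677). Nqo1 was most like Cbr3, a carbonyl reductase gene (0.863), and Me1, the malic enzyme gene (0.799), both of which are on the list of other Nrf2 targets, and then Ethe1 (0.772). Gclc was most like the efflux pump genes Abcb1a (0.760) and Abcb1b (0.750) and Por, the reductase that serves P450 enzymes (0.750). Cyp2b10 was most like Fmo5, a flavin monooxygenase gene (0.882), Ms4a10 (0.877) and Cyp2c66 (0.866).

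The remaining members had lower or less familiar neighbours. For Nfe2l2 they were Chdh (0.741), Dusp16 (0.730) and Dnaaf1 (0.720), and for Tiparp Trip12 (0.776), Mpp5 (0.740) and Mkln1 (0.740). Cyp1a1 had the lowest values, with Rmdn3 at 0.620, Ptpa at 0.592 and P4hb at 0.590. Among the members themselves, Gclc and Cyp2b10 were the most alike pair (0.663), followed by Nqo1 and Gclc (0.606), and Nr1i2 was most like Tiparp (0.536) and had -0.015 with Nfe2l2.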

How the data were processed

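Raw counts per gene of total RNA, depleted of ribosomal RNA, were deposited by the authors as 1 filtered table. FastQC, HISAT2, featureCounts and edgeR 3.42.0 are named, with mm10, per the submitters' processing notes; the sources used here do not give the filter, annotation or strand setting. Counts were tested with edgeR 4.0.16 in R 4.3.3 (TMM scaling, filterByExpr, quasi-likelihood F test, Benjamini-Hochberg adjustment over all genes, threshold 0.05). Leptin on water was fitted over both cohorts with cohort as a term; comparisons with antibiotics used the 24 libraries of cohort MT. The scripts were tested on simulated data. Alternatives were DESeq2 1.42.0, limma 3.58.1 (voom with quality weights), upper quartile scaling, no filter, tissue scores as covariates, libraries high in pancreas transcripts left out, each library left out, and a replicate block; an enterocyte score was added after the data were seen. Members and gene lists were chosen with earlier results of these data known. All members are named; from each list, genes that passed and up to 2 with the lowest p. Gene positions and lengths are from GENCODE vM21 (GRCm38). Library totals were 30207536 to 67870777 counts. No 2 libraries of a group held identical values.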

Additional observations from a re-analysis of the deposited data

Results flagged for a closer look

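In 4 of the 54 sets of values examined (9 genes in 6 groups by cohort), 1 library lay far from the others of its group; about 1 in 20 sets is marked in this way by chance. Nr1i2 was 180 CPM in Saline-water 10, where the next highest Saline-water library of cohort MT had 143 CPM. Tiparp was 43.5 CPM in Leptin-antibiotic 1, where the next highest of the group had 38.2 CPM. Saline-antibiotic 5 was the lowest of its group for 2 genes, with Ahr at 49.2 CPM (next 56.4) and Gclc at 50.8 CPM (next 59.6). It is among the libraries with a pancreas marker mean above 4 log2 CPM.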

How the results depend on the processing

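Over 90 member results, 2810 of 2826 values under other settings kept their side of the threshold, 7 lost the call and 9 gained one. Nearly all of the 90 were not called to begin with, so this share says little of the calls. Nr1i2 for leptin on antibiotic passed under 4 of 8 other settings and in 24 of 24 fits without 1 library. Nr1i3 between cohorts passed under 6 of 7 and in 25 of 27. No called value changed sign, while 113 values that were not called had the opposite sign. For leptin on antibiotic, the members passing (1) became 0 with tissue scores, without libraries high in pancreas transcripts, with the enterocyte score and with the replicate block (Nr1i2 0.46, adjusted p = 0.091). For antibiotics in saline mice (0) they became 1 under DESeq2 and upper quartile scaling, 2 with the enterocyte score, and 0 to 1 over fits without 1 library. For antibiotics averaged over injections (0) they became 1 with upper quartile scaling and 3 with the enterocyte score. Between cohorts (1) they became 0 with tissue scores and 0 to 1 without 1 library. The r of Nr1i2 and Cyp2b10 became 0.388 without libraries high in pancreas transcripts. The cause was not tested.

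Counts over all genes moved more. Leptin on water gave 51 genes, 10 to 147 without 1 library (Leptin-water 2 and Saline-water 10), 0 with the replicate block and 173 under DESeq2. Leptin on antibiotic gave 84, 9 to 183 without 1 library (Leptin-antibiotic 3 and Saline-water 13), 0 with tissue scores and 391 under DESeq2. Antibiotics gave 32 in saline mice (17 to 233 over other settings), 372 in leptin mice (90 to 1034) and 1054 averaged (815 to 1996). Replicate numbers did not pair the samples: of 6 antibiotic pairs 1 had a correlation of deviations above 0.1 (-0.262 to 0.581), of 7 water pairs in cohort M 3, and of 5 in cohort MT 0. For leptin against saline, the fits with a replicate block used the shared numbers. No such fit was possible for antibiotic against water within cohort MT or between the Saline-water libraries of the cohorts, which share no numbers. How depth limits each gene was not compared.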
